A study of Mus musculus with 5 samples.

Results

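Genes of fatty acid synthesis and desaturation were followed across 5 lines derived from the mouse neuroblastoma cell line Neuro2A by every probe set whose annotation names 1 of 10 genes and no other gene. The 10 genes, Srebf1, Acly, Acss2, Acaca, Fasn, Scd1, Scd2, Elovl6, Fads1 and Fads2, were represented by 26 of 45037 probe sets. Of these, 23 were among the 22519 that passed the brightness filter, a geometric mean signal of at least 40.5 over the 5 arrays. The genes were selected on their function together with values already known from these arrays, namely the higher signals of a lipid synthesis list in the knockdown lines and the difference in Scd1 between those lines. Both contrasts are therefore described here, and no test on them is offered as support. The control arm held 3 lines, which were parental Neuro2A, Neuro2A with an empty vector and Neuro2A with a vector for knockdown of EGFP. The knockdown arm held 2 lines, each stably carrying a different vector for knockdown of KDM7, the histone demethylase encoded by Kdm7a. The study asked what KDM7 does to gene expression. All 5 lines share the Neuro2A background, and the labels do not say whether a stable line is 1 clone or a pool. Each line was measured on 1 Affymetrix array, so lines, constructs and arrays all add to the spread within an arm. The standard errors (SE) from limma given below are moderated, which means that each probe set's variance is drawn toward that of probe sets of like signal. They are therefore not the spread of that probe set alone. Nothing says the lines were cultured separately, so the SE covers these arrays only. Single values are listed for the control lines in the order parental, empty vector, EGFP knockdown, and for the knockdown lines in the order line 1, line 2. Signals are intensities on a linear scale, log2 changes are knockdown minus control, and values of different probe sets are not comparable as levels.

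Cells build fatty acids from acetyl-CoA, which the cytosol obtains from citrate or from free acetate. Acetyl-CoA is carboxylated to malonyl-CoA, fatty acid synthase joins these units to palmitate, and palmitate is then lengthened by elongases and given double bonds by desaturases in the endoplasmic reticulum. The transcription factor SREBP-1, the product of Srebf1, drives many of these genes, and in neural cells their products supply membranes and myelin.

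Marker genes were read against the labels first. Kdm7a, the targeted gene, had signals of 487, 611 and 665 by probe set 1456150_at in the control lines and of 130 and 136 in the knockdown lines. Of 11 sympathoadrenal neuroblastoma markers on the array 10 passed the brightness filter, Th being the exception. Of the 10, 7 had a log2 change below 0 and 3 above, with a median of -0.20. The transcription factor gene Gata3 lay below every control line in the pair of knockdown lines, at 554, 224 and 585 in the control lines against 178 and 95.3 (log2 change -1.68, SE 0.46). The same order was found for Isl1, at 1493, 545 and 1998 in the control lines against 316 and 466 (-1.62, SE 0.55). In Gata3 and Isl1 the empty vector line was the lowest control, only 1.26-fold and 1.17-fold above the higher knockdown line. The granule protein gene Chga also lay below every control line (-0.56, SE 0.22), and Chgb lay above (0.58, SE 0.13). Limma called 0 of the 10 at an adjusted p under 0.05. It gave 4 of them an unadjusted p under 0.05, beside 4.96% of all kept probe sets. The order of Gata3, Isl1 and Chga was shared by 10.2% of all kept probe sets, and that of Chgb by 12.6%. The summed signal of all 11 markers, Th included, was 49693 to 54913 in the control lines, 51912 in knockdown line 1 and 57763 in line 2. Such a sum follows the brightest sets and does not measure the markers as a set. Chgb alone had 9825, 10981 and 9341 in the control lines, 13086 in line 1 and 17193 in line 2, while 7 of the 10 kept markers had a log2 change below 0. The part of these markers in the values of the lipid genes was not tested. None of 5 adipocyte, 6 blood and immune or 3 liver markers passed the brightness filter. Of other markers, 2 of 6 for fibroblasts and 1 of 4 for Schwann cells and oligodendrocytes passed it.

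Most members lay higher in the knockdown lines by a small amount, and the parental line was lowest for nearly all of them. The median log2 change was 0.33 over the 23 kept member probe sets and 0.03 over all kept probe sets, and 22 members had a change above 0 and 1 below. Both knockdown lines exceeded every control line for 12 of the 23, which represent 9 of the 10 genes, and below every control line for 0. Over all kept probe sets these orders were found for 12.6% and 10.2%. The same 12 were above both vector-carrying control lines, as were 18.5% of all kept probe sets. The gap between the lower knockdown line and the highest control line was small for these 12, from 1.00-fold to 1.35-fold with a median of 1.09-fold. In limma, at an adjusted p under 0.05, 0 of the 23 were called, against 0.00888% of all kept probe sets. Before adjustment limma gave 7 members a p under 0.05, from 6 genes, against 4.96%, and 2 with a plain variance model (eBayes without trend and robust), which called 0 after adjustment. Since the members were selected on this contrast, nothing is read from these counts. The order was sensitive to the scaling of the arrays. Median centring shifted all changes by -0.11, left 7 members above every control line where the share over all kept probe sets was 6.02%, and turned 3 probe sets of Acly to below 0, so that 19 members were higher and 4 lower, with a median of 0.22 beside -0.08 for all kept probe sets. The 7 were Srebf1, both Acss2 sets, Fasn, Scd2 1415822_at, Elovl6 1417403_at and Fads1 1423680_at. The medians used for centring were taken over all 45037 probe sets, those under the filter included. Quantile normalization left 11 members above every control line (11.3% of all kept probe sets), and cyclic loess left 10 (11.0%). RNA was taken from whole cultures, so more RNA per cell and more cells with the transcript cannot be told apart.

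The parental line held the lowest signal of all 5 lines for 21 of the 23 kept member probe sets, covering all 10 genes, where the share over all kept probe sets was 31.5%. The highest signal was in KDM7 knockdown line 1 for 11, in the EGFP knockdown line for 6, in KDM7 knockdown line 2 for 5 and in the empty vector line for 1. The members were selected partly for higher knockdown signals, which makes a control line more often the lowest. Several sets also share a gene, so the share over all kept probe sets is not a like comparison. Within the control arm the parental line was the lowest in those 21 sets, and the parental array enters each knockdown minus control value. Without that line the members' median log2 change was 0.22, with 18 probe sets above 0 and 5 below, and without the EGFP knockdown line it was 0.41, with 18 of 23 above every remaining control line beside 23.5% of all kept probe sets.

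**Figure D1:**
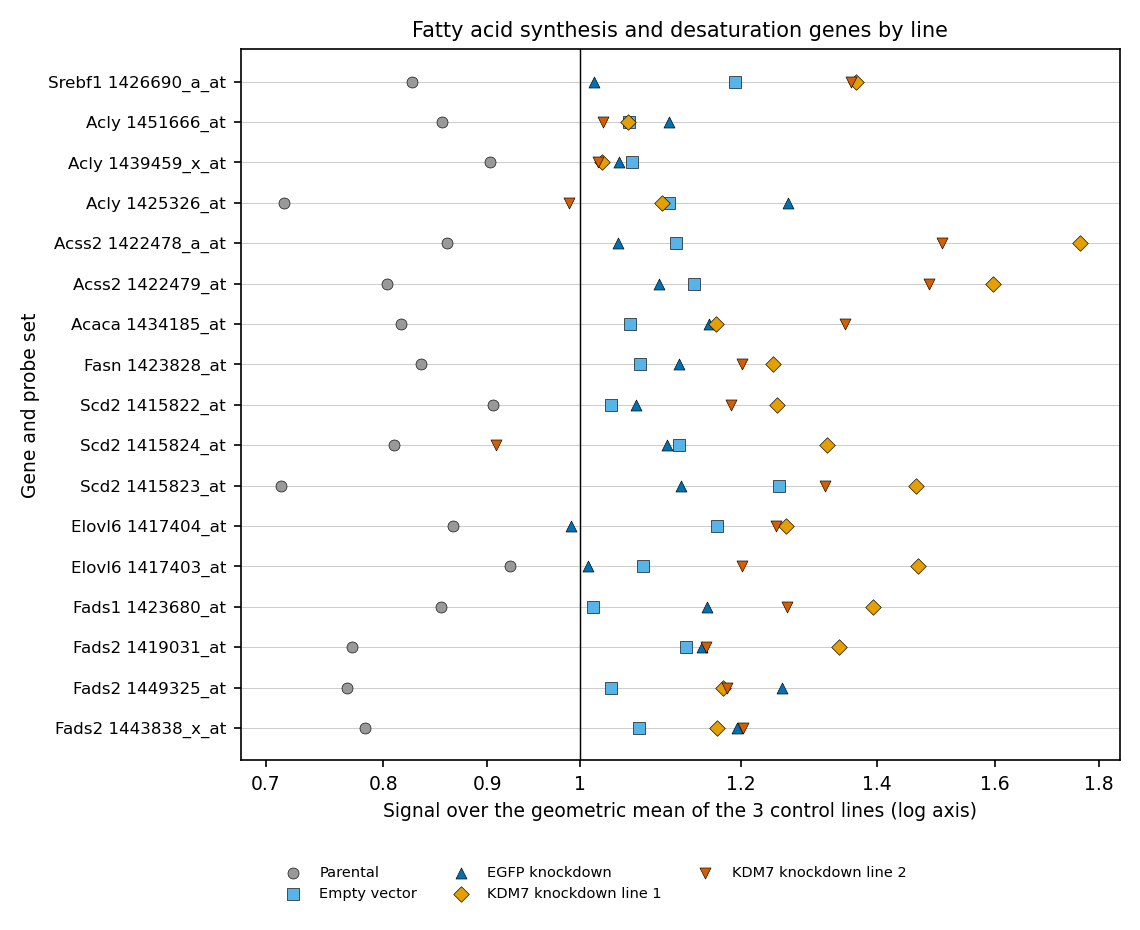
Signal in each of the 5 lines of 17 member probe sets with a geometric mean signal of at least 100. Signals are divided by the geometric mean of the 3 control lines (log axis, 1 point per array, no error bars since each line has 1 array). The parental line is lowest in all 17, the knockdown lines lie above every control line in 11, and both Scd1 probe sets and 4 dim ones are left out.

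Srebf1, the regulator of the group, encodes a membrane-bound transcription factor that is released by proteolysis and activates genes of lipid synthesis. Its only probe set, 1426690_a_at, had signals of 3605, 5203 and 4433 in the control lines and of 5968 and 5933 in the knockdown lines. Both knockdown lines were above every control line, by 1.14-fold at the least, and line 1 exceeded line 2 by 1.01-fold. The control mean was 4414 ± 799 (SD, n = 3) and the knockdown mean 5950 ± 24.7 (SD, n = 2), a log2 change of 0.45 (SE 0.15), or 0.31 without the parental line. The suffix _a_at marks a set that reads several transcripts of a gene, so the SREBP-1a and SREBP-1c forms are not told apart here.

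Among the genes that supply acetyl-CoA, Acss2 stood clear of the controls and Acly did not. Acss2 encodes cytosolic acetyl-CoA synthetase, which activates free acetate. Its probe set 1422478_a_at had signals of 777, 1008 and 943 in the control lines and of 1592 and 1362 in the knockdown lines. The groups did not overlap, and the gap of 1.35-fold was the widest among the kept members. The log2 change was 0.70 (SE 0.17), or 1.63-fold, with control and knockdown means of 909 ± 119 (SD, n = 3) and 1477 ± 163 (SD, n = 2). The second probe set, 1422479_at, gave the same order, with 634, 898 and 863 in the control lines and 1260 and 1172 in the knockdown lines (log2 change 0.62, SE 0.19). Without the parental line these changes were 0.60 and 0.46. Its remaining probe set, 1446542_at, had signals from 4.39 to 30.9 and did not pass the brightness filter.

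The promoter of Acss2 is shown because this gene had the widest gap, and that of Fasn because it encodes the synthase itself. Both are the 250 bases before the annotated transcription start from RefSeq, build GRCm38.p6, Acss2 at chr2:155517793-155518042 on the plus strand and Fasn at chr11:120824548-120824797 on the minus strand. Capitals mark matches on either strand to CCAAT or to GGGCGG, which is a core of GC boxes.
Acss2: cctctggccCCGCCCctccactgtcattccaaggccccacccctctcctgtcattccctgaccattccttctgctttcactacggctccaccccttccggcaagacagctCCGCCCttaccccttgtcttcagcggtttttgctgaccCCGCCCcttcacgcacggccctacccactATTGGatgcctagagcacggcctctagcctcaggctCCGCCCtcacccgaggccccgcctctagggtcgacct
Fasn: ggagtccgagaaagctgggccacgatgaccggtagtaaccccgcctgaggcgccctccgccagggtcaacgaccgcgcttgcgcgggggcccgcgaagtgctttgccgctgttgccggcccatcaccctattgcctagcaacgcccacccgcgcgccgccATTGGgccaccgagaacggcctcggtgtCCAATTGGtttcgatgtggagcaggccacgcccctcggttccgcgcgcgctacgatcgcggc
Windows of 300 bases, from 250 before to 50 after the start, were found for 7 of the 10 genes, 9 windows in all, and Scd1, Scd2 and Fads1 had none. CCAAT, the core of the NF-Y site, occurred in 5 of the 9 windows (Srebf1, Acly, Acss2 and Fasn), and GGGCGG also in 5 (Srebf1, Acly, Acss2 and Fads2). In all 32851 windows of that length the shares were 37.4% and 35.7%. The E-box CACGTG, held by 7.15% of all windows, and the sterol regulatory element core TCACNCCAC, held by 1.24%, were found in 0 of the 9. In Fasn 2 of the CCAAT matches overlap in opposite orientation. A match is a description of letters, and the lack of a match covers these letters in these windows only.

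Acly encodes ATP-citrate lyase, which splits exported citrate into acetyl-CoA and oxaloacetate. The brightest probe set, 1451666_at, had signals of 10834, 13395 and 14007 in the control lines and of 13375 and 12999 in the knockdown lines. The knockdown lines lay within the control range, and the log2 change of 0.06 (SE 0.11) turned to -0.05 after median centring and to -0.05 without the parental line. Probe sets 1439459_x_at (log2 change 0.03, SE 0.09) and 1425326_at (0.06, SE 0.23) showed the same, with knockdown values inside the control range and -0.04 and -0.18 without the parental line. All 3 of these sets lay below both vector-carrying controls in both knockdown lines. A dim set, 1446315_at, had 54.0, 51.6 and 36.0 in the control lines and 55.7 and 59.8 in the knockdown lines, a gap of 1.03-fold. The other 2, 1438389_x_at and 1439445_x_at, had signals from 1.01 to 66.3 and did not pass the filter.

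Fasn lay above every control line in both knockdown lines by a small gap, and Acaca lay there by its brighter probe set alone and barely. Acaca encodes acetyl-CoA carboxylase 1, the enzyme of the committed step, and had signals of 850, 1101 and 1205 by 1434185_at in the control lines and of 1214 and 1404 in the knockdown lines. Line 1 exceeded the EGFP knockdown line by 1.01-fold only, an order that was lost after median centring and after quantile normalization, and the log2 change was 0.33 (SE 0.19), or 0.18 without the parental line. The dim Acaca set 1427595_at had a geometric mean signal of 40.7, just inside the filter. It went the other way at 36.5, 49.4 and 51.0 in the control lines against 33.4 and 36.5 (log2 change -0.37, SE 0.40). It was the 1 kept member with a change below 0.

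Fasn encodes the multifunctional enzyme that assembles palmitate. Its probe set 1423828_at had signals of 5341, 6847 and 7151 in the control lines and of 7956 and 7686 in the knockdown lines. The groups did not overlap, with a gap of 1.07-fold. The control mean was 6446 ± 969 (SD, n = 3) and the knockdown mean 7821 ± 191 (SD, n = 2), a log2 change of 0.29 (SE 0.13), or 0.16 without the parental line.

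Elovl6 encodes the elongase that takes palmitate to stearate. Probe set 1417404_at had signals of 1638, 2211 and 1873 in the control lines and of 2390 and 2365 in the knockdown lines. By 1417403_at the values were 835, 971 and 912 in the control lines and 1326 and 1087 in the knockdown lines. Both sets had the knockdown lines above every control line, with log2 changes of 0.33 (SE 0.16) and 0.41 (SE 0.16), or 0.22 and 0.35 without the parental line. By the dim set 1442656_at the EGFP knockdown line, at 82.6, matched both knockdown lines, at 82.3 each, so the groups overlapped.

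Of the desaturases other than Scd1, Scd2, Fads1 and Fads2 each lay above every control line in both knockdown lines by at least 1 probe set, though Fads2 did not after median centring or cyclic loess. Scd2 encodes a stearoyl-CoA desaturase, which places the first double bond in saturated acyl chains and is the main form in brain. Its brightest set, 1415822_at, had signals of 18765, 21442 and 22058 in the control lines and of 25882 and 24559 in the knockdown lines, without overlap (log2 change 0.28, SE 0.08). By 1415823_at the control lines had 1551, 2729 and 2441 and the knockdown lines 3186 and 2876, again without overlap (0.47, SE 0.23). The third set, 1415824_at, had 6367, 8793 and 8674 in the control lines, 10398 in line 1 and 7146 in line 2. Line 2 there was below both vector-carrying control lines, and the log2 change of 0.13 (SE 0.19) was -0.02 without the parental line, -0.14 without line 1 and 0.40 without line 2.

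Fads1 and Fads2 encode the delta-5 and delta-6 desaturases of polyunsaturated fatty acids. Fads1 1423680_at had signals of 2158, 2567 and 2918 in the control lines and of 3523 and 3197 in the knockdown lines (log2 change 0.41, SE 0.15), with a gap of 1.10-fold. Its dim set 1440444_at had 48.1, 48.7 and 134 in the control lines and 117 and 86.6 in the knockdown lines, which overlapped. Fads2 1419031_at had 1610, 2352 and 2394 in the control lines and 2796 and 2404 in the knockdown lines, where line 2 met the EGFP knockdown line within 1.00-fold (log2 change 0.31, SE 0.19). In Fads2 1449325_at both knockdown lines, at 1224 and 1229, were below the EGFP knockdown line at 1309, and in 1443838_x_at the values were 298, 406 and 454 against 444 and 457. Without the parental line the 3 Fads2 changes were 0.13, 0.05 and 0.07.

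Scd1 was the member in which the knockdown lines parted. It encodes a stearoyl-CoA desaturase that is known mainly from liver and fat tissue. Probe set 1415965_at had signals of 25.6, 29.7 and 68.0 in the control lines, 58.3 in KDM7 knockdown line 1 and 542 in line 2. By 1415964_at the values were 11.4, 16.4 and 85.6 in the control lines, 29.5 in line 1 and 1864 in line 2. Line 2 alone was high, 7.97-fold and 21.8-fold above the next highest line, which was the EGFP knockdown line in both sets. Line 1 lay inside the control range, so the groups overlapped although the log2 changes were 2.25 (SE 0.94) and 3.22 (SE 1.92). Without line 2 they were 0.65 and 0.23, and without line 1 they were 3.86 and 6.21. Among the controls the EGFP knockdown line was the highest in both sets, while the parental and empty vector lines were under the filter level of 40.5 and may be background, so log2 changes against the controls are uncertain in size.

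Between the knockdown lines Scd1 differed by 3.22 on the log2 scale by 1415965_at, 9.29-fold, and by 5.98 by 1415964_at, 63.1-fold. The latter was the widest excess of line 2 over line 1 among all 22519 kept probe sets, and the former ranked number 6. Only 1415964_at exceeded every other line by at least 8-fold in line 2. These folds are uncertain in size, since the signal of line 1 in 1415964_at was under the filter level of 40.5 and was not shown to be above background. When 32 was added to every signal before taking logs, the differences were 2.67 and 4.95. Without line 2, probe set 1415964_at would have had a geometric mean signal of 26.2 and would not have passed the filter, while 1415965_at would have had 41.7. Each line was measured once, so there is no replicate check of the difference.

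**Figure D2:**
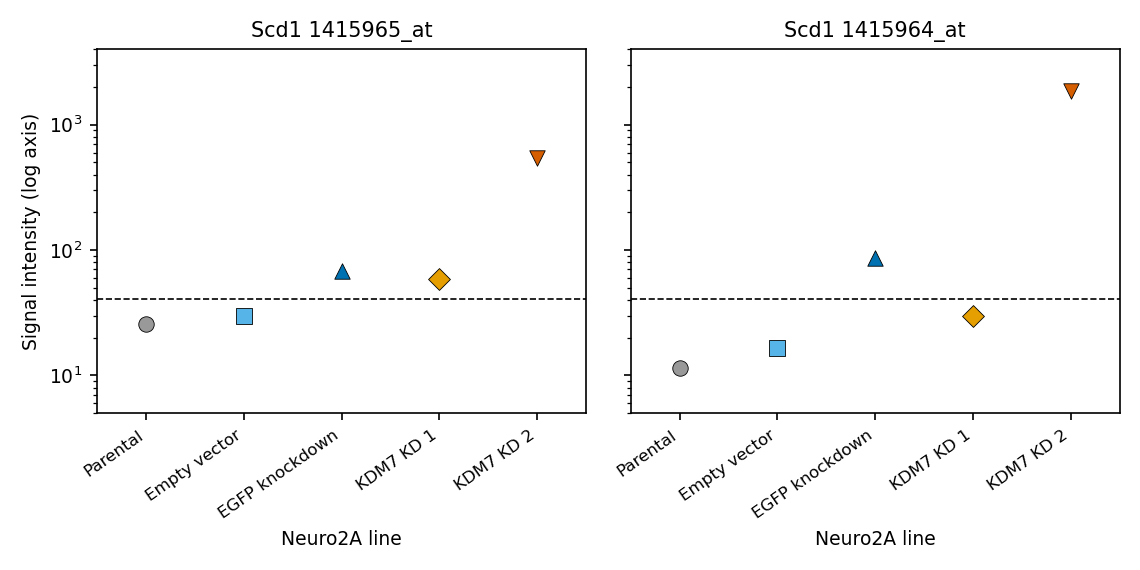
Signal intensity of the 2 Scd1 probe sets in each of the 5 Neuro2A lines (log axis, 1 point per array), with the brightness filter level of 40.5 dashed. KDM7 knockdown line 2 stands at 542 and 1864, and no other line is above 85.6.

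The other 9 genes showed no such split. Their 21 kept probe sets differed between the knockdown lines by -0.54 to 0.21 on the log2 scale, line 2 minus line 1, and 16 of them were higher in line 1 and 5 in line 2. That count depended on the scaling, since after median centring 10 were higher in line 1 and 11 in line 2, and the median went from -0.05 to 0.02 while that of all kept probe sets went from 0.01 to 0.08. At least 2-fold apart were 2 of the 23 kept members, both of Scd1, where the share over all kept probe sets was 3.08%. The Scd1 difference was known when the genes were selected, and 1415964_at passed the filter only through line 2. Nothing is therefore read from this count. The widest difference outside Scd1 was that of Scd2 1415824_at, 1.45-fold higher in line 1, while the other Scd2 sets differed by 0.08 and 0.15 on the log2 scale. Kdm7a itself was at 130 and 136 in lines 1 and 2 by 1456150_at and at 231 and 143 by 1435867_at. Summed over 5 adipocyte markers, none of them past the brightness filter, the signal was 113 in line 1 and 53.7 in line 2, against 38.8 to 68.2 in the control lines. Both fibroblast markers that passed the filter were lower in line 2, Col1a2 at 27.9 against 61.3 and Pdgfra at 51.5 against 115. The summed signal of all 6 fibroblast markers was 223 in line 1, 131 in line 2 and 156 to 220 in the control lines, and its part in the Scd1 difference was not tested.

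**Figure D3:**
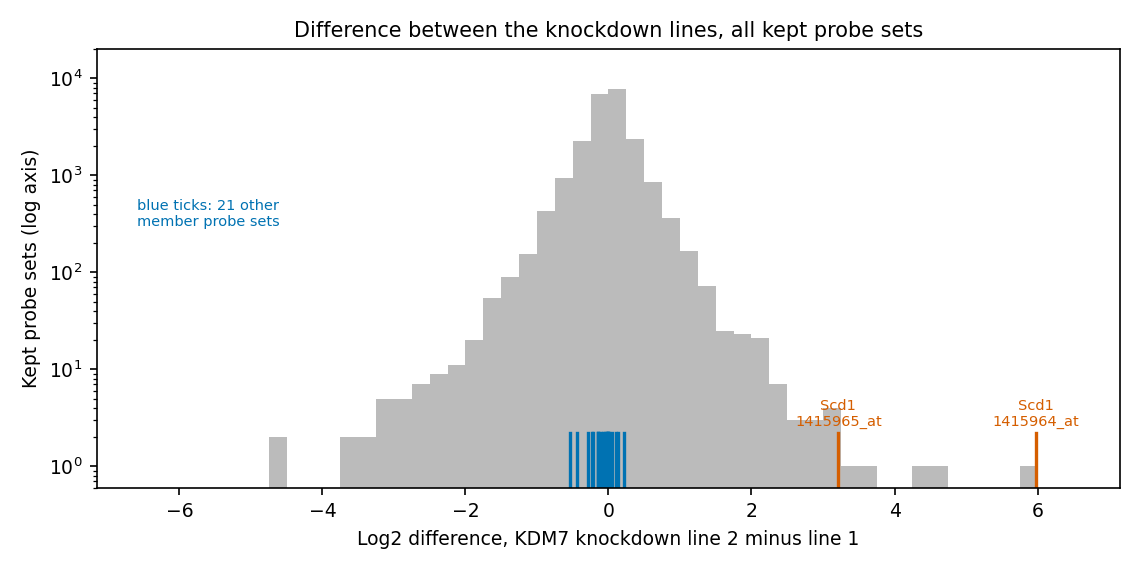
Distribution of the log2 difference between KDM7 knockdown line 2 and line 1 over all 22519 kept probe sets (grey bars, count on a log axis), with the 23 member probe sets as ticks. The 2 Scd1 sets lie at 3.22 and 5.98, and the 21 others between -0.54 and 0.21.

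Genes with the pattern most like that of Scd1 were sought by the distance between log2 signals centred on their mean over the 5 lines. Nearest to 1415965_at were 2 probe sets of Krt8, which encodes the intermediate filament protein keratin 8, at distances of 1.52 and 1.93. Krt8 1423691_x_at had signals of 32.8, 38.7 and 134 in the control lines, 60.5 in knockdown line 1 and 256 in line 2. It shared with Scd1 the highest value in line 2 and the second highest in the EGFP knockdown line. Zyx 1438552_x_at (zyxin, a focal adhesion protein), Casp8 (caspase 8) and Rnf112 followed at 1.99, 2.07 and 2.12. For 1415964_at the same Krt8 sets came first, at 3.61 and 3.87, followed by Zyx, Rnf112 and Cxadr 1449949_a_at at 3.95, 4.43 and 4.45. Nearest does not mean alike here. Scd1 1415964_at had 29.5 in line 1 and 1864 in line 2, where Krt8 1423691_x_at had 60.5 and 256. Cxadr had 54.9 and 110, with 92.5 in the EGFP knockdown line. These distances describe 5 arrays and carry no test.

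Among other genes of fatty acid metabolism both orders were found. Of 76 listed genes in 6 groups, 71 were on the array and 62 passed the filter, each taken by its brightest set. Of the 62, limma called 0 at an adjusted p under 0.05, and 9 had an unadjusted p under 0.05, beside 4.96% of all kept probe sets, or 6 with the plain variance model. Both knockdown lines exceeded every control line for 8 and below for 5, shares to be read beside the 12.6% and 10.2% of all kept probe sets, and the median log2 change was 0.09 beside 0.03. The parental line was lowest for 21 of the 62, close to the 31.5% of all kept probe sets.

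By role, regulators of lipogenesis (14 kept) had a median log2 change of 0.09. Above every control line were Rxra, a retinoid X receptor that partners the liver X receptors, at 204, 168 and 129 in the control lines against 249 and 278 (log2 change 0.68, SE 0.25), and Insig1, which retains SREBP precursors in the endoplasmic reticulum, at 2259, 2382 and 2583 against 3092 and 3049 (0.35, SE 0.12). The dim regulators Mlxipl, Nr1h3, Prkaa2 and Thrsp did not pass the filter. Genes that supply citrate, malonyl-CoA and NADPH (6 kept) had a median of 0.10. Slc25a1, the mitochondrial citrate carrier, had 1985, 2724 and 3127 in the control lines and 3171 and 3302 in the knockdown lines (0.33, SE 0.19). This is the order also seen in Acaca, here with a gap of 1.01-fold only.

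The elongation group (11 kept, median -0.10) held genes in opposite order. Elovl7, an elongase of saturated long chains, lay below every control line in both knockdown lines by all 6 of its probe sets, with log2 changes from -0.69 to -0.46. Its brightest set, 1441891_x_at, had signals of 1879, 1738 and 1826 in the control lines and of 1195 and 1061 in the knockdown lines (-0.69, SE 0.14). Tecr, the reductase of the last step of the elongation cycle, was above every control line by both of its sets. By 1429681_a_at it had 4373, 4142 and 4500 in the control lines and 6012 and 6199 in the knockdown lines (0.49, SE 0.10), and by 1416352_s_at the change was 0.47. The smallest adjusted p in limma was 0.869 for each of these genes, so neither passed. Elovl4 at 951, 708 and 683 against 447 and 577 (-0.60, SE 0.21) and Hacd2 (-0.22, SE 0.12) were also below every control line. In the brightest sets of Elovl7 and Tecr the parental line was not the lowest, and without it Elovl7 had -0.66 and Tecr 0.50.

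**Figure D4:**
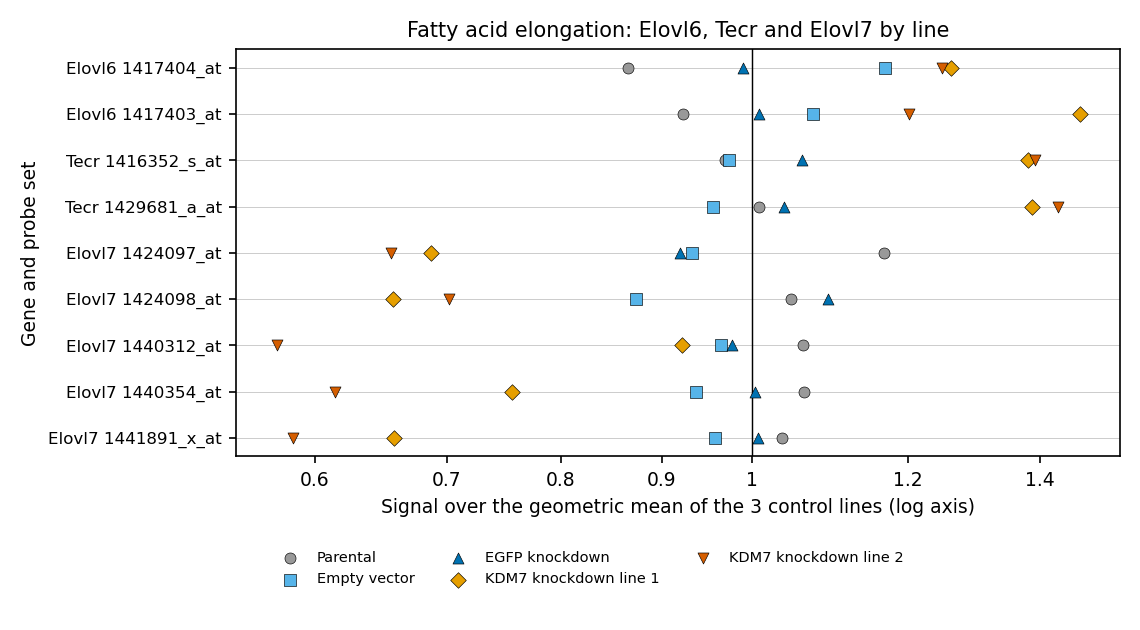
Signal in the 5 lines of Elovl6, Tecr and Elovl7 probe sets with a geometric mean signal of at least 100. Signals are divided by the geometric mean of the 3 control lines (log axis, 1 point per array). On the signals as deposited, knockdown lines lie right of every control line for Elovl6 and Tecr (after median centring no longer for Elovl6 1417404_at) and left of every control line for the 5 Elovl7 sets shown.

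The other desaturases and their electron carriers (7 kept) had a median log2 change of -0.05. Scd3, a further stearoyl-CoA desaturase, was below every control line, at 220, 211 and 231 in the control lines against 178 and 170 (-0.34, SE 0.20), so its order was opposite to that of Scd2. Fads6 had the widest change of the group, 0.44 (SE 0.30), or 0.12 without the parental line, which was at 937 where the other lines had 1617 to 2082. Genes of acyl-CoA activation, glycerolipid assembly and storage (15 kept) had a median of 0.14. Lpin1, a phosphatidate phosphatase, had 353, 939 and 662 in the control lines and 1167 and 907 in the knockdown lines, which overlapped (0.77, SE 0.38, or 0.38 without the parental line). Dbi, the acyl-CoA binding protein, was above every control line at 9409, 11974 and 11669 against 14477 and 14656 (0.41, SE 0.11). Fabp5 was also above, by 1.03-fold only (0.19, SE 0.07), and Agpat3 was below (-0.38, SE 0.15). Genes of fatty acid oxidation (9 kept) had a median of 0.13. Above every control line were Cpt1c, by 1.04-fold only (0.34, SE 0.21), and Acadm, medium-chain acyl-CoA dehydrogenase, at 1498, 1489 and 1294 against 1836 and 1770 (0.34, SE 0.14). Over the 6 groups, 8 of 62 genes above and 5 below are near the 12.6% and 10.2% of all kept probe sets. Nothing is therefore read from these orders, which are those of the signals as deposited.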

How the data were processed

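Total RNA of 5 Neuro2A lines was labelled as biotinylated cRNA and hybridised to 1 Affymetrix array per line. The deposited values are linear signal intensities, and the submitters' processing notes name MAS5 as the tool. Neither its version nor its settings are stated there, and detection calls were not used. Every array had a 2% trimmed mean of 500.0, so values were used without further scaling. Of 45101 probe sets 64 controls were left out. Log2 signals without offset were fitted with limma 3.58.1 (R 4.3.3; linear model, then empirical Bayes with its trend and robust options), 2 knockdown against 3 control lines, on the 22519 probe sets whose mean log2 signal was at or above the median, with Benjamini-Hochberg adjustment over all of them. On simulated data the fit returned the size of the changes put in, which checks its estimates and not its power to call a change. With nothing changed, and spreads drawn from its own moderated variances, it still made a few calls in most draws, whereas the model without trend and robust made none, so a call by this fit alone is weak. With each probe set's own residual spread neither model made a call.

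Symbols came from the platform annotation (34945 probe sets with 1 symbol, 932 with several, 9160 with none listed). Gene numbers of 34741 were found in a RefSeq table of assembly GRCm38.p6, and no symbol needed updating. Listed genes that matched no symbol are not analysed here.

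The members and lists were chosen with earlier results of these data known. All member probe sets are reported. In the other lists a gene is named if called, if its change is the widest of its list, if both knockdown lines lie at least 1.25-fold beyond every control line, or if those lines are at least 2-fold apart. Insig1, Elovl4, Hacd2, Scd3, Agpat3, Dbi, Fabp5 and Acadm, and the markers Isl1, Chga and Chgb, were named after their values were seen. For each Scd1 probe set the 5 nearest probe sets of other genes are named. The number of arrays limits the precision of every value. Alternatives were quantile normalization, median centring, cyclic loess, other brightness filters, an offset of 32, a variance model without trend and robust, and leaving out each array.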

Additional observations from a re-analysis of the deposited data

How the results depend on the processing

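In every alternative tried limma called 0 members. Over all kept probe sets 2 were called, against 1 after median centring, 0 after cyclic loess, 0 without trend and robust and 0 to 4 when an array was left out. The 12 members above every control line (12.6% of all kept probe sets) were 7 after median centring (6.02%), 10 after cyclic loess (11.0%), 11 after quantile normalization (11.3%) and 12 to 18 when an array was left out (18.5% to 24.5%), the 18 without the EGFP knockdown line (23.5%). Those below were 0 (10.2%), but 1 (Acaca 1427595_at) after each of the 3 scaling methods (11.3% to 17.7%), and 0 to 4 when an array was left out (16.6% to 20.9%), the 4 without the parental line being 3 Acly sets and that Acaca set. The count of 2 at least 2-fold apart between the knockdown lines (3.08%) was 4 without the brightness filter (26.7%), from dim Acly sets, and 0 with the filter at the 70th percentile (0.385%), which removes Scd1. Leaving out an array or raising the filter changes the number of arrays or probe sets compared, and for the scaling methods the cause was not tested. No paired analysis was possible because the control lines carry no replicate numbers in the labels. Detection calls were not used, so signals near 40.5 may be background.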

Other observations

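Probe set 1457460_at, annotated to both Gssos2 and Acss2 and therefore not counted as a member, had a signal of 15.9 in KDM7 knockdown line 1 and of 3.42 to 4.57 in the 4 other lines, all under the filter level of 40.5.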
